A study of Mus musculus with 10 samples.

Results

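The genes described here are 7 genes of antigen presentation by major histocompatibility complex (MHC) class II, taken by symbol from the 33347 genes of the deposited table. They are H2-Aa, H2-Ab1, H2-Eb1, H2-DMa, H2-DMb1, Cd74 and Ciita. All 7 were found, and all 7 had enough counts to be tested. The libraries came from lungs of wild-type mice in which bleomycin, a drug that injures the lung, had produced fibrosis, and every mouse had also been injected with bone marrow cells. In 5 libraries those cells were high in the activity of aldehyde dehydrogenase, an enzyme family that oxidises aldehydes (ALDHbr), and in 5 they were low in it (ALDHdim). The sources used here do not give strain, age, sex, doses or times. Nor do they say that each sample came from a separate mouse, and p-values then reflect only how these samples differ among themselves, which may be technical. RNA of the recipient and of the transferred cells was counted together, and no lung without transferred cells was analysed here.

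Class II molecules sit on the surface of antigen-presenting cells and show peptides from the endosome to CD4+ T cells. Each is a pair of an alpha and a beta chain: H2-Aa with H2-Ab1 makes I-A, and H2-Ea with H2-Eb1 makes I-E. Cd74, the invariant chain, fills the groove of a new molecule until proteases cut it down, and the H2-DM pair (H2-DMa with H2-DMb1) then exchanges the remaining fragment for a peptide. Ciita encodes the transactivator that switches on the other genes of the set. B cells, dendritic cells and many macrophages express these genes, and in mice alveolar type 2 cells, the surfactant-producing epithelium, do so as well.

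The genes of this set that Ciita regulates share a promoter arrangement, an X box followed by a Y box, to which the factors that recruit CIITA bind. Entries of RefSeq promoter sequence on GRCm38.p6 were found for 4 of the 7 genes (H2-Aa, H2-Eb1, H2-DMa and H2-DMb1) and for 4 of 5 other class II genes. They are shown as a description, and whether these sequences bear on the levels of the genes across libraries was not tested. The windows run 5′ to 3′ on the gene's strand, from 130 to 31 bases before the start site, and capitals mark matches on that strand to AACNNATG (a core of the X box), to GATTGG (a core of the Y box) and, in H2-Aa, to TGACGTCA.
H2-Eb1: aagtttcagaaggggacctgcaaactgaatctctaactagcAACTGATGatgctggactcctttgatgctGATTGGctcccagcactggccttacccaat
H2-DMb1: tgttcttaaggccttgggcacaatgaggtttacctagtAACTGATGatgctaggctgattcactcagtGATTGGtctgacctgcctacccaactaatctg
H2-Aa: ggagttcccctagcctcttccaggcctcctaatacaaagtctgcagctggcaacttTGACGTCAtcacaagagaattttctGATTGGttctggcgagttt
H2-Ob: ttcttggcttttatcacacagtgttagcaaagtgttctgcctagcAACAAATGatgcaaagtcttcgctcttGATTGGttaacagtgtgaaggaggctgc
These windows lie at chr17:34305737-34305836 on the plus strand (H2-Eb1), chr17:34153061-34153160 on the plus strand (H2-DMb1), chr17:34287854-34287953 on the minus strand (H2-Aa) and chr17:34238775-34238874 on the plus strand (H2-Ob).

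The X letters and the Y letters stood in the same order and close together. They were 21 bases apart in H2-Eb1, 22 in H2-DMb1 and 19 in H2-Ob, a class II-like gene whose product restrains H2-DM. The same pair, with 10 to 40 bases between the matches on either strand and no overlap, occurred in the 250 bases before the start of 5 of the 8 class II genes with an entry (also H2-DMb2 and H2-Eb2) and of 32 of 27025 genes in all (0.118%). By themselves the X letters, searched on both strands, occurred in 8.87% of genes and the Y letters in 16.6%. H2-Aa had the Y letters without the X letters, and had TGACGTCA, the cAMP response element, 74 bases before its start. Only the letters AACNNATG were searched for the X box, so their absence does not show that a promoter lacks that box. That element was present in 1.55% of all promoter entries. Neither of the 2 entries for H2-DMa held the pair. The letters were chosen from the known boxes with these promoters in view, and a match is a description of the sequence.

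Of the 7 genes, 5 lie in the H2 complex on chromosome 17 of GRCm38. By GENCODE release 21 the genes span 34282744 to 34287823 (H2-Aa, minus strand), 34257689 to 34269419 (H2-Ab1), 34305867 to 34316674 (H2-Eb1), 34119541 to 34139101 (H2-DMa) and 34153072 to 34160230 (H2-DMb1). Ciita spans 10480059 to 10528418 on chromosome 16, and Cd74 lies on chromosome 18. Counts were summed over each gene.

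Libraries held 588063 to 2002947 counts, fewest in ALDHbr 2 and most in ALDHdim 2, and detected 17044 to 25377 genes. ALDHbr 3 and ALDHbr 5 stood apart with 24722 and 25377 genes detected, where the other 8 libraries had 21209 or fewer. Lung markers were abundant: Sftpc, the surfactant protein of alveolar type 2 cells, ranged from 14603 to 35813 CPM (counts per 1000000 counts of the library), and none of the 10 alveolar type 2 markers was at 0 in any library.

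All 7 genes were detected in every library, and together they took 0.276 to 0.675% of a library's counts. Levels are counts over the tested genes after TMM scaling, in CPM. The method reads RNA near its 3' end, so a level does not grow with transcript length and is not divided by it. Averaged over the 10 libraries, Cd74 was the highest at 1774 ± 515 CPM (SD, n = 10), followed by H2-Aa at 1251 ± 305, H2-Ab1 at 778 ± 219 and H2-Eb1 at 750 ± 222 CPM. The peptide exchange genes stood lower, H2-DMa at 96.3 ± 28.0 CPM and H2-DMb1 at 84.5 ± 22.9 CPM. Ciita, the regulator, was the lowest at 35.1 ± 9.86 CPM. This order was the same within each of the 10 libraries for 4 of its 6 neighbouring pairs. H2-Ab1 exceeded H2-Eb1 in 8 of 10 libraries and H2-DMa exceeded H2-DMb1 in 9 of 10, and both pairs differed by less than the SD between libraries. H2-DMb1 has a close copy next to it, H2-DMb2, and the counting of reads that match both is not described in the sources used here.

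Cd74 stood at 1481, 1099, 1319, 2433 and 1983 CPM in ALDHbr libraries 1 to 5. In the ALDHdim libraries 1 to 5 it stood at 1890, 1080, 1904, 1998 and 2547 CPM. The lowest level was in ALDHdim 2 and the highest in ALDHdim 5, so the range of the ALDHbr group lay inside that of the ALDHdim group. Of the 7 genes, Cd74 had the estimate farthest from 0, a log2 fold change (ALDHbr over ALDHdim) of −0.18 (SE 0.24) at means of 1663 ± 539 and 1884 ± 524 CPM (SD, n = 5 each). Its adjusted p was 0.999 by edgeR's quasi-likelihood test with Benjamini-Hochberg adjustment over all 10844 genes tested.

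The chains of I-A followed the same libraries. H2-Aa, the alpha chain, was at 1037, 941, 1197, 1579 and 1526 CPM in ALDHbr 1 to 5 and at 1156, 762, 1190, 1381 and 1741 CPM in ALDHdim 1 to 5. H2-Ab1, the beta chain, was at 609, 591, 704, 1079 and 957 CPM in ALDHbr and at 712, 426, 783, 814 and 1109 CPM in ALDHdim recipients. For both chains ALDHdim 2 was lowest, ALDHdim 5 highest, and the groups overlapped throughout. Group means of H2-Aa were 1256 ± 286 and 1246 ± 357 CPM (log2 fold change 0.01, SE 0.21), and those of H2-Ab1 were 788 ± 219 and 769 ± 244 CPM (0.04, SE 0.23; n = 5 each). H2-Eb1, the beta chain of I-E, stood at 614, 473, 677, 1035 and 949 CPM in ALDHbr and at 690, 399.5, 770, 859 and 1038 CPM in ALDHdim recipients, with means of 749.7 ± 235 and 751 ± 235 CPM. Here too the ALDHbr values fell inside the range of the ALDHdim values, and the log2 fold change was 0.00078 (SE 0.25).

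The partner of H2-Eb1 was nearly undetected. H2-Ea, the alpha chain of I-E, is annotated in the table as a polymorphic pseudogene and is known to be silent in some mouse strains. It had 4 counts in all, spread over 3 libraries and never more than 2 in a library, while H2-Eb1 had 9768 counts over all 10 libraries.

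H2-DMa and H2-DMb1 showed a similar order of libraries at lower depth, with 31 to 249 and 37 to 219 counts a library. H2-DMa was at 87.4, 60.6, 107, 114 and 129.95 CPM in ALDHbr and at 94.4, 51.0, 77.4, 104 and 137 CPM in ALDHdim recipients. H2-DMb1 was at 59.5, 72.4, 98.3, 104 and 95.8 CPM in ALDHbr and at 88.0, 42.9, 71.4, 92.6 and 120.3 CPM in ALDHdim recipients. ALDHdim 2 again had the lowest and ALDHdim 5 the highest level of both. The log2 fold change was 0.13 (SE 0.24) for H2-DMa and 0.05 (SE 0.24) for H2-DMb1.

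Ciita rested on 11 to 82 counts a library. Its level was 23.4, 21.5, 32.3, 48.0 and 45.8 CPM in ALDHbr 1 to 5 and 32.7, 25.2, 34.0, 42.9 and 45.05 CPM in ALDHdim 1 to 5. Both extremes lay in the ALDHbr group, the lowest in ALDHbr 2 and the highest in ALDHbr 4, and means were 34.2 ± 12.3 and 36.0 ± 8.08 CPM (log2 fold change −0.03, SE 0.23).

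**Figure D1:**
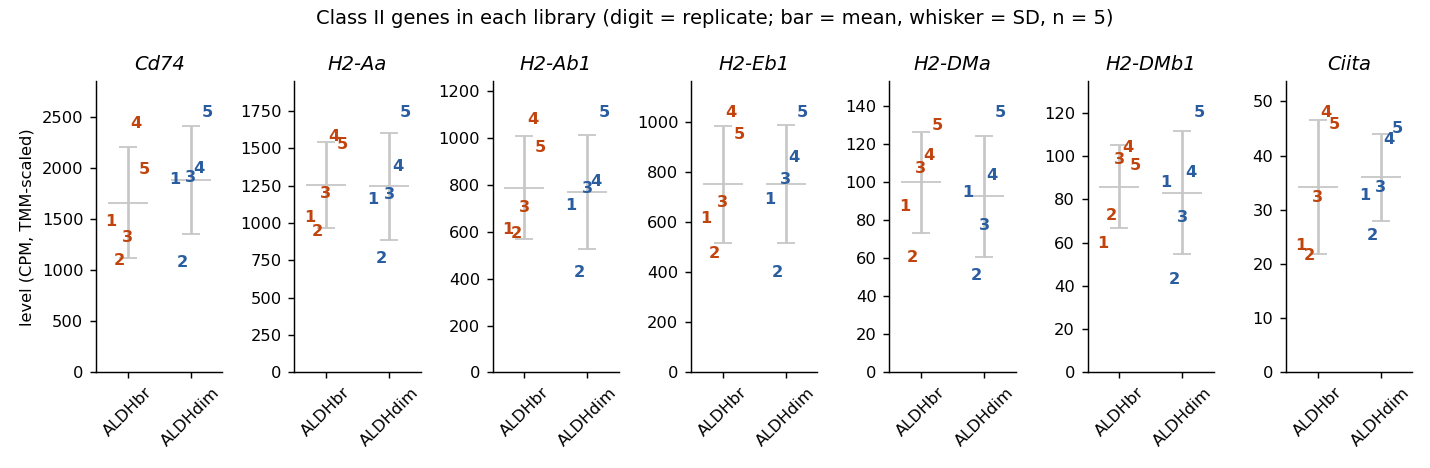
Level of each class II gene (CPM, linear axis from 0) in the 5 ALDHbr and 5 ALDHdim libraries; each digit is the replicate number of 1 library, the bar is the group mean and the whisker its SD. The groups overlap for all 7 genes, and ALDHdim 2 is lowest for every gene except Ciita.

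None of the 7 genes passed the threshold of an adjusted p under 0.05 with edgeR's quasi-likelihood test, against 0 of 10844 genes tested (0%). At an unadjusted p under 0.05 there were 0 of the 7, against 402 of 10844 (3.71%), and the lowest unadjusted p of the 7 was 0.46, for Cd74. DESeq2, run without the low-count filter, and limma-voom also called 0 genes. At an unadjusted p under 0.05 they had 1465 of 33347 and 690 of 10844 genes. Of the 7 edgeR estimates 5 were above 0 and 2 below, with a median log2 fold change of 0.0126, beside 0.0108 over all genes tested. For each of the 7 the 95% interval stayed inside a 2-fold difference, up or down, as the plot of group differences shows. As a fold it ran from 0.624 to 1.25 for Cd74, 0.744 to 1.37 for H2-Aa, 0.73 to 1.44 for H2-Ab1, 0.692 to 1.45 for H2-Eb1, 0.765 to 1.57 for H2-DMa, 0.728 to 1.48 for H2-DMb1 and 0.696 to 1.38 for Ciita. The sign of 6 of these estimates changed when some single library was left out. That of Cd74 stayed below 0, from −0.04 without ALDHdim 5 to −0.36 without ALDHbr 4. Without ALDHdim 2 none of the 7 was above 0 (median −0.12), without ALDHbr 4 1 was (−0.10), without ALDHbr 5 2 were (−0.07), and without ALDHdim 5 6 were (0.17).

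**Figure D2:**
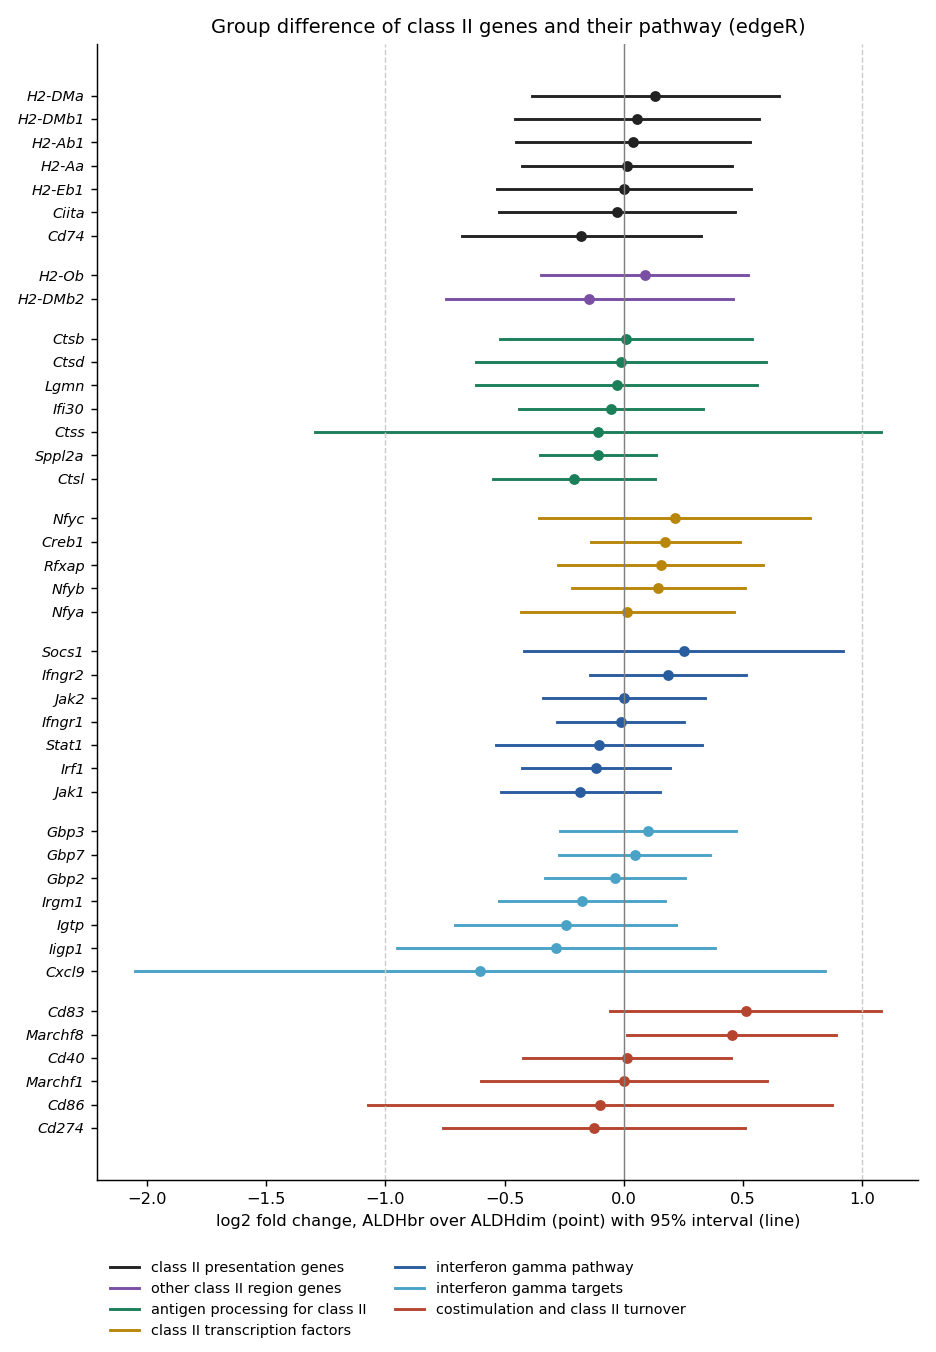
Log2 fold change (ALDHbr over ALDHdim, edgeR) of the 7 class II genes and of the 34 tested genes of 6 related lists (other class II genes, antigen processing, transcription factors, interferon gamma pathway and targets, costimulation and turnover); points are estimates, lines 95% intervals, and dashed lines mark 2-fold. The intervals of the 7 class II genes include 0 and lie between −0.68 and 0.65, and of the other 34 only that of Marchf8, unadjusted, does not include 0.

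Variation between libraries was much larger than that between groups. The level in the highest library exceeded that in the lowest 2.23-fold for Ciita, 2.29-fold for H2-Aa, 2.36-fold for Cd74, 2.60-fold for H2-Eb1 and H2-Ab1, 2.68-fold for H2-DMa and 2.81-fold for H2-DMb1. The coefficient of variation over the 10 libraries was 24.4% for H2-Aa and 29.6% for H2-Eb1, the lowest and the highest of the 7. Counting error in the median library came to 2.06% for Cd74, 2.47% for H2-Aa and 14.4% for Ciita, so it was a small part of the spread for the abundant genes and a larger part for Ciita. If reads were not collapsed by molecular identifier, PCR copies make the true counting error larger.

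The 7 genes varied in parallel. Over the 21 pairs of these genes Pearson's r of log2 CPM across the 10 libraries ranged from 0.74 to 0.99, with a median of 0.90. Cd74 was set against each of the other 6 as single genes, with permutation p adjusted over the 6 relations. Here and below, p-values of correlations are those of Pearson's r unless a rank test is named. With H2-Eb1 its r was 0.947 (Spearman's rho 0.976, adjusted permutation p = 6e-05, from a p of 1e-05, the smallest the permutations can give). With H2-Ab1 r was 0.917 (rho 0.976, p = 1e-04, adjusted p = 3e-04) and with H2-Aa 0.911 (rho 0.915, p = 0.00024, adjusted p = 0.00048). With Ciita, its own regulator, Cd74 had r = 0.881 (rho 0.879, permutation p = 0.0015, adjusted p = 0.0022). The peptide exchange genes followed less closely, H2-DMa with r = 0.807 (rho 0.794, p = 0.005, adjusted p = 0.006) and H2-DMb1 with r = 0.740 (rho 0.721, p = 0.012, adjusted p = 0.012).

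These correlations were lower without 2 libraries. ALDHdim 2 and ALDHbr 2, the farthest from the median of Cd74, were both low. Without them r was 0.882 for H2-Eb1, 0.875 for H2-Ab1, 0.820 for H2-Aa and 0.789 for Ciita. For H2-DMa it was 0.479 (adjusted permutation p = 0.23) and for H2-DMb1 0.567 (adjusted permutation p = 0.17), so those 2 calls were lost. Leaving out libraries chosen by their Cd74 level narrows its range and leaves fewer libraries. A call lost in this way therefore does not show what a relation rested on. For H2-DMb1 the call was also lost without ALDHdim 2 alone (r = 0.616, adjusted permutation p = 0.075). With the group means removed r was 0.791 to 0.973 over the 6 genes. A group holds 5 libraries, too few for an r of its own. With log10 total counts Cd74 had an r of 0.348 over the 10 libraries (rho 0.115, permutation p = 0.33, adjusted p = 0.66 over 2 relations). This value turned on single libraries. Without ALDHdim 2, the library of highest depth and lowest Cd74, r was 0.790 and passed (permutation p = 0.01, adjusted p = 0.021). Without ALDHbr 2, the library of lowest depth, r was −0.04, and without both it was 0.582 (adjusted permutation p = 0.25). The part of depth in the correlations among the class II genes was not tested. With genes detected r was 0.145 (rho −0.03, permutation p = 0.69, adjusted p = 0.69), and from −0.20 to 0.372 with 1 library left out.

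**Figure D3:**
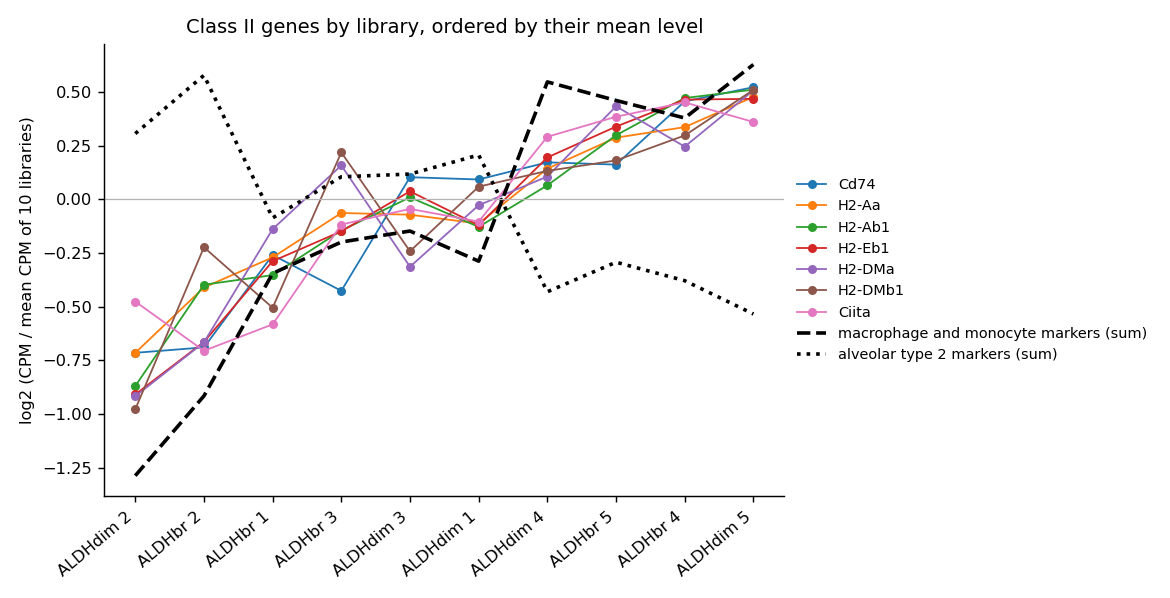
Log2 of each gene's CPM over its mean in the 10 libraries (vertical axis), with libraries ordered from the lowest to the highest mean class II level; solid lines are the 7 class II genes, the dashed line the summed macrophage and monocyte markers, the dotted line the summed alveolar type 2 markers. Libraries of both groups are interleaved, with ALDHdim 2 and ALDHbr 2 at the low end and ALDHbr 4 and ALDHdim 5 at the high end.

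Within a library the chains kept nearly constant proportions. Counts per H2-Aa count, which do not depend on library scaling, were 0.623 ± 0.039 in ALDHbr and 0.612 ± 0.039 in ALDHdim recipients for H2-Ab1 (SD, n = 5 each). For H2-Eb1 they were 0.588 ± 0.058 and 0.597 ± 0.046. Over the 10 libraries these ratios varied by 6.06% and 8.35%, against 28.1% and 29.6% for the levels of the same genes. The ratios of H2-DMa, H2-DMb1, Ciita and Cd74 varied by 11.8 to 13.0%. Counting error of these genes in the median library was 8.84%, 9.90%, 14.4% and 2.06%, in that order. For Ciita it exceeded the variation of the ratio, 12.3%. Over the 10 libraries the largest of the group differences in these ratios was that of the invariant chain. Cd74 stood at 1.43, 1.17, 1.103, 1.54 and 1.2997 counts per H2-Aa count in ALDHbr 1 to 5 and at 1.63, 1.42, 1.6004, 1.45 and 1.46 in ALDHdim 1 to 5. Of the ALDHbr libraries 3 lay below every ALDHdim library and the other 2 inside their range. The log2 difference (ALDHbr minus ALDHdim) was −0.22, which did not pass an exact two-sided permutation test over 252 assignments (p = 0.063, adjusted p = 0.38 over 6 ratios; the smallest p it allows is 0.0079). Those 3 were ALDHbr 2, the library of lowest depth, and ALDHbr 3 and ALDHbr 5, the libraries with the most genes detected. Without ALDHbr 3 and ALDHbr 5 the difference was −0.14 (exact permutation p = 0.23). The ratios were chosen after the counts had been seen. For the other 5 genes the exact permutation p ranged from 0.22 (Ciita) to 0.75 (H2-Eb1). Without ALDHbr 3 and ALDHbr 5 the difference of Ciita, −0.23 (exact permutation p = 0.16), was larger than that of Cd74. With 1 library left out the difference kept its sign for Cd74 (−0.28 to −0.16), Ciita (−0.20 to −0.10) and H2-DMa (0.056 to 0.175).

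**Figure D4:**
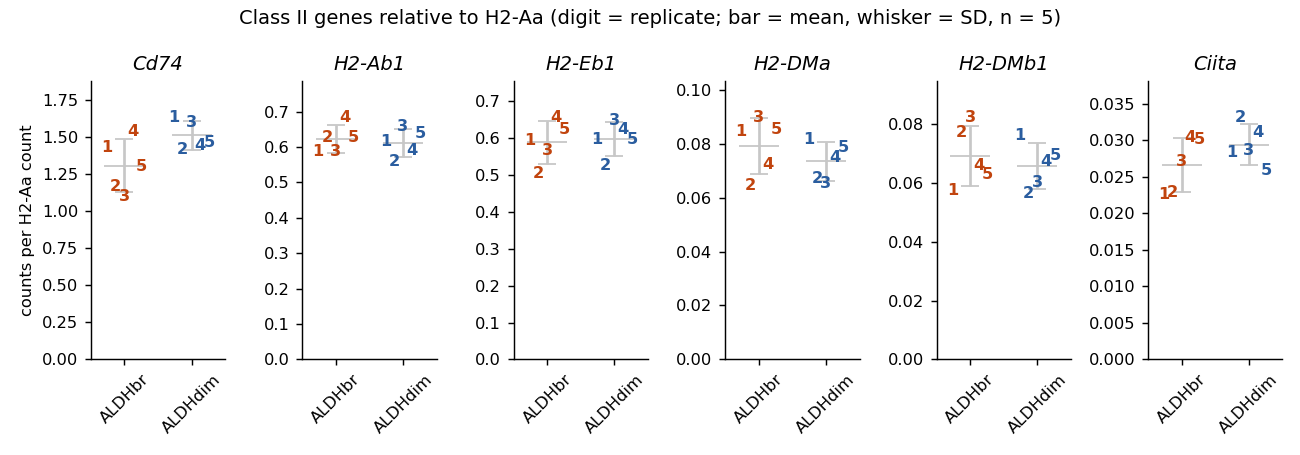
Counts of 6 class II genes per count of H2-Aa in the same library (linear axes from 0); digits are replicate numbers, bars group means and whiskers SD. H2-Ab1 and H2-Eb1 keep a narrow range in both groups, and 3 of the 5 ALDHbr libraries lie below all ALDHdim libraries for Cd74.

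Several cell types of the lung express class II genes, so Cd74 was compared with the summed level of markers of each, 8 lists in all. In bulk RNA fewer cells of a type and less RNA per cell cannot be told apart, and all sums share the scaling of their library. Cd74 followed the 12 markers of macrophages and monocytes, of which Apoe, C1qa and C1qc were the most abundant (r = 0.90, rho 0.927, permutation p = 0.00044, adjusted p = 0.0035). Their summed level was 1152 to 2991 CPM in ALDHbr and 890.4 to 3359 CPM in ALDHdim libraries, lowest in ALDHdim 2 and highest in ALDHdim 5. It also followed 8 pan-leukocyte genes such as Laptm5, Cd52 and Cd53 (r = 0.813, rho 0.867, p = 0.0061, adjusted p = 0.016), at 919 to 1519 and 955 to 1716 CPM. Against the 10 markers of alveolar type 2 cells, led by Sftpc, Sftpa1 and Sftpb, it ran in the opposite direction (r = −0.84, rho −0.88, permutation p = 0.0036, adjusted p = 0.015), at 28084 to 54510 and 25220 to 45161 CPM. None of these 3 calls held without ALDHdim 2 and ALDHbr 2, with r of 0.755, 0.7098 and −0.68 over the remaining 8 libraries (adjusted permutation p = 0.13, 0.13 and 0.14). Without ALDHdim 5 the pan-leukocyte call (r = 0.755, adjusted permutation p = 0.067) and the alveolar type 2 call (r = −0.79, 0.057) were lost too.

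Markers of the other cell types did not pass this test on Pearson's r over the 10 libraries. For 12 B cell genes r was 0.283 (rho 0.321, permutation p = 0.43, adjusted p = 0.43). Left without ALDHdim 2 and ALDHbr 2 it was 0.714 (adjusted permutation p = 0.13), close to the 0.7098 of the pan-leukocyte list there, and with 1 library left out it ran from 0.0298 to 0.451. Their sum was low, 144 to 295 CPM in ALDHbr and 163 to 241 CPM in ALDHdim libraries, with Ms4a1 (CD20) the most abundant at 24.7 to 66.5 CPM. Cd79a, a signalling chain of the B cell receptor, was at 0 in 1 library. For 10 T cell genes r was 0.537 (rho 0.588, p = 0.11, adjusted p = 0.15), for 10 alveolar macrophage genes −0.58 (rho −0.65, p = 0.08, adjusted p = 0.13) and for 8 endothelial genes −0.62 (rho −0.72, p = 0.061, adjusted p = 0.12). Over the 8 libraries without ALDHdim 2 and ALDHbr 2 these r were 0.542, −0.19 and −0.32. In the rank test endothelial genes passed over the 10 libraries (Spearman's rho −0.72, permutation p = 0.023, adjusted p = 0.045). Alveolar macrophage genes did not pass it (permutation p = 0.049, adjusted p = 0.078). Some of the calls on Pearson's r also turned with single choices. Endothelial genes passed without ALDHbr 3 (r = −0.79, adjusted permutation p = 0.025), and alveolar macrophage genes passed with group means removed (r = −0.73, adjusted permutation p = 0.031). Whether the alveolar macrophage sum came from that cell type alone was not tested, and the list was mixed. Beside its most abundant gene, 3 of its 9 other genes had an r with Cd74 above 0 and 6 below. These ran from −0.90 to 0.707 over the 10 libraries, a description with no test.

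The dendritic cell list gave an r of 0.354 (rho 0.248, permutation p = 0.31, adjusted p = 0.36), from 0.0124 to 0.606 with 1 library left out. Most of its sum came from Cst3 (cystatin C), at 2155 to 2715 CPM, a gene that many other cell types express. Left without the most abundant gene of each list, an alternative chosen after seeing the data, the 11 other dendritic cell genes followed Cd74 with r = 0.964 (adjusted permutation p = 0.00032, n = 10). As single genes, a description over the 10 libraries with no test, 9 of the 11 had an r with Cd74 above 0 and 2 below, with a median of 0.557. The most abundant of the 11, which weigh most in their sum, were among the highest. They were Itgax (CD11c) at 0.877 and the chemokine gene Ccl17 at 0.851, at 17.6 to 93.9 and 16.6 to 58.8 CPM. Whether their transcripts came from dendritic cells alone was not tested. Clec9a, a receptor of cross-presenting dendritic cells, ran the other way at −0.54, as did Zbtb46, a transcription factor of conventional dendritic cells, at −0.38. Xcr1, a chemokine receptor that marks the same cells as Clec9a, had 0.557. Markers of 1 cell subset therefore lay on both sides of 0. In the alternative without the most abundant gene r was 0.886 for macrophages and monocytes, 0.345 for B cells and −0.79 for alveolar type 2 cells. Which cells carried the class II transcripts was not tested.

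**Figure D5:**
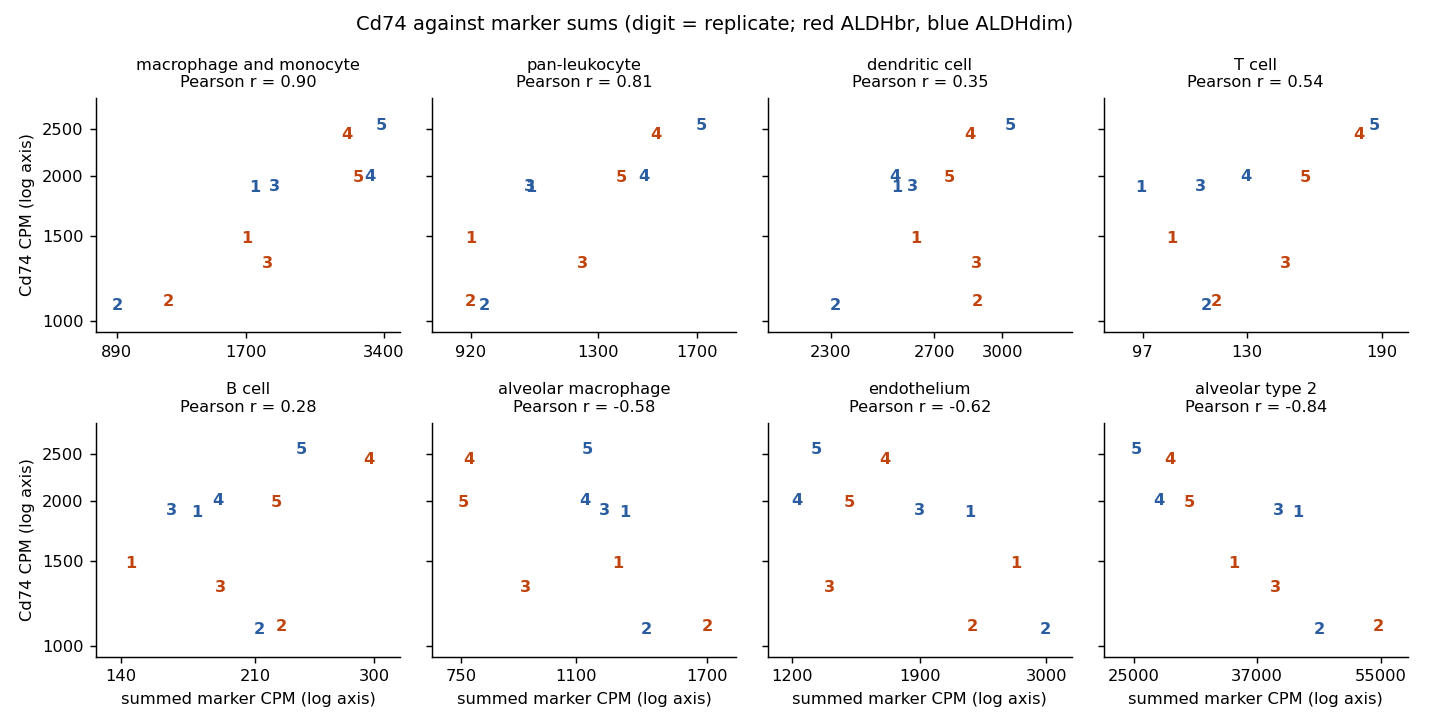
Cd74 level (CPM, log axis) against the summed level of 8 marker lists (CPM, log axes); each digit is the replicate number of 1 library, red for ALDHbr and blue for ALDHdim. Over the 10 libraries Cd74 is high where macrophage and monocyte and pan-leukocyte markers are high and low where alveolar type 2 markers are high, with replicates 2 of both groups at the low end, and the dendritic cell sum is mostly Cst3.

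Among 10419 other named genes tested, the 10 whose log2 CPM correlated best with the mean of the 7 centred class II genes had r from 0.958 to 0.980 over the 10 libraries, as a description of likeness with no test. They were Ccl8, a monocyte chemokine (r = 0.98), Clcn5, an endosomal chloride and proton exchanger (0.97), P2ry6, a nucleotide receptor (0.96), C1qb and C1qa, chains of complement C1q (0.96 each), Timp1, an inhibitor of matrix metalloproteases (0.96), Fcer1g, the signalling chain of Fc receptors (0.96), Pfn1 (profilin) and Cotl1, which bind actin (0.96 each), and Fcrls, an Fc receptor-like gene (0.96). Ccl8 had the widest range of the 10 relative to its mean, from 4.04 to 91.2 CPM. An r over 0.9 was reached by 101 of the genes compared. Between 4 and 9 of these 10 stayed among the 10 most alike as single libraries were dropped. C1qa and C1qb are also on the macrophage and monocyte list.

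The rest of the pathway was read from lists of related genes. Other class II genes of the H2 complex were scarce. H2-DMb2 averaged 20.8 ± 9.11 CPM with ALDHbr cells and 24.5 ± 8.46 CPM with ALDHdim cells (log2 fold change −0.14, SE 0.28), and H2-Ob, the beta chain of H2-DO, averaged 20.02 ± 2.57 and 18.2 ± 3.76 CPM (0.09, SE 0.21; SD, n = 5 each). H2-Oa (61 counts in all) and H2-Eb2 (47 counts) were below the filter, as was H2-Ea. Of the 2 genes tested, 0 passed.

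In the antigen processing list, 0 of 7 genes passed with edgeR, 1 estimate was above 0 and 6 were below, with a median of −0.05. Ctss, the cathepsin that makes the last cuts in the invariant chain, was at 740, 369.7, 1473, 1611 and 1406 CPM in ALDHbr 1 to 5 and 921, 304, 997, 1878 and 1950 CPM in ALDHdim recipients. It spanned a wider range than any of the 7 class II genes, and its low libraries were again ALDHbr 2 and ALDHdim 2. Its 95% interval, 0.408 to 2.11 as a fold, was the only one of this list to pass 2-fold. Ctsl (cathepsin L) differed by −0.21 (SE 0.16) and Sppl2a, the intramembrane protease that removes the Cd74 stub, by −0.11 (SE 0.12).

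Among the transcription factors of the X and Y boxes, 0 of 5 tested genes passed, all 5 estimates were above 0 and the median was 0.15. Creb1 differed by 0.17 (SE 0.15) and Nfyb by 0.14 (SE 0.17). The estimate of Creb1 was −0.04 without ALDHbr 3 and ALDHbr 5. Rfx5 and Rfxank, subunits of the factor on the X box, had 35 and 61 counts in all and were not tested.

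The interferon gamma pathway, which induces Ciita, had 3 estimates above 0 and 4 below, with a median of −0.01, and 0 of 7 tested genes passed. Ifng itself had 1 count in all 10 libraries together, in an ALDHdim library. Its receptor chain Ifngr2 differed by 0.18 (SE 0.15) and the kinase gene Jak1 by −0.18 (SE 0.16). Without ALDHbr 3 and ALDHbr 5 the estimate was 0.00177 for Ifngr2 and −0.05 for Jak1. Leaving out ALDHbr 5 alone gave 0.0735 for Ifngr2, and leaving out ALDHbr 3 alone gave −0.07 for Jak1. Of 7 tested target genes of this cytokine, 5 estimates were below 0 and 2 above (median −0.17), and 0 passed. The GTPase genes Igtp and Irgm1 had the smallest p of these targets, at −0.24 (SE 0.22) and −0.17 (SE 0.16). Without ALDHbr 3 and ALDHbr 5 Igtp was at −0.12.

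In costimulation and class II turnover 0 of 6 tested genes passed, with 4 estimates above 0 and 2 below. Over the 6 related lists together 1 of 34 tested genes had an unadjusted p under 0.05 (2.94%), a share near the 3.71% of all genes tested, so it is no result about these lists. Marchf8, a ubiquitin ligase that lowers surface class II, was at 47.5, 60.6, 89.3, 55.9 and 60.8 CPM in ALDHbr and at 62.5, 41.4, 56.1, 34.5 and 33.0 CPM in ALDHdim recipients. The groups overlapped, since ALDHdim 1 exceeded 4 of the 5 ALDHbr libraries. The log2 fold change was 0.45 (SE 0.21), and edgeR's quasi-likelihood test gave an unadjusted p of 0.044 and a Benjamini-Hochberg adjusted p of 0.999. The estimate was 0.25 without ALDHbr 3 and ALDHbr 5. Cd83, a glycoprotein of mature dendritic cells that slows class II turnover by opposing such ligases, differed by 0.51 (SE 0.27) with an adjusted p of 0.999, with means of 21.2 ± 6.79 CPM under ALDHbr and 14.9 ± 3.71 CPM under ALDHdim transfer.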

How the data were processed

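The members and lists were chosen with earlier results of these data known. Lung RNA was made into 3' libraries by BRB-seq, in which an oligo-dT primer adds a sample barcode of 9 nt and a molecular identifier of 10 nt, with inserts of 81 nt, per the labels' protocols. The submitters' processing notes name featureCounts 2.0.1, HISAT2 2.2.1, DESeq2, Trim Galore 0.6.7 and UMI-tools, and builds GRCm38 and GRCh38, without roles. The authors deposited raw counts per gene, not normalized. Identifier collapsing, strand and annotation: not given in the sources used here. All 33347 gene IDs were found in GENCODE mouse release 21 on the same chromosome.

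Genes were kept by filterByExpr (minimum count 10), leaving 10844 genes with 97.3% of counts. TMM scaling was applied, and groups were compared by edgeR 4.0.16 (robust quasi-likelihood fit, Benjamini-Hochberg threshold 0.05) in R 4.3.3, after a run on simulated data. Each SE is the absolute log2 fold change over the root of F. Log2 CPM used a prior count of 2. Correlations used 100000 two-sided permutations, for Pearson's r and for Spearman's rho. March1 and March8 were matched as Marchf1 and Marchf8. The text names all 7 genes, up to 2 genes of smallest p per related list (the rule allowed 4), plus Ctss, chosen after its values were seen, the 3 most abundant markers of lists that are described, plus Cd79a, Xcr1, Clec9a and Zbtb46, also chosen after their values were seen, and the 10 most alike genes without predicted or clone names. Alternatives were other scalings, filters, prior counts and tests (DESeq2 1.42.0, limma 3.58.1 voom), a replicate term, removal of hemoglobin, immunoglobulin and mitochondrial genes, and left-out libraries. Plots used matplotlib 3.10.9.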

Additional observations from a re-analysis of the deposited data

Results flagged for a closer look

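Ctsl, the gene of cathepsin L, was at 211 CPM in ALDHbr 2 while ALDHbr 1, 3, 4 and 5 had 299 to 312 CPM. The gap to its neighbour took 0.867 of the group's range, above the critical share of 0.71. ALDHbr 2 was the library of lowest depth. This was 1 of 66 sets of 5 values examined, where chance gives about 3.3.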

How the results depend on the processing

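None of the 7 genes passed under any alternative run. The count of genes past the threshold was 0 throughout, except 185 of 33347 with no low-count filter. The median log2 fold change of all genes was 0.22 there and 0.28 with DESeq2. Both medians cover 33347 genes, including those below the filter, and are no baseline for the 7 genes. In edgeR with DESeq2 size factors on the 10844 filtered genes, the median was 0.0144 for all genes and 0.0156 for the 7. Estimates changed sign with no filter for H2-Aa (−0.0464), H2-Ab1 (−0.0187), H2-Eb1 (−0.0516) and H2-DMb1 (−0.0115), with DESeq2 for H2-Aa (−0.0044) and H2-Eb1 (−0.0174), and with a mean count of at least 10 for H2-Eb1 (−7.2e-05). They did so with limma-voom for Ciita (0.10) and H2-DMb2 (0.0271), and without ALDHbr 3 and ALDHbr 5 for H2-Aa (−0.0688), H2-Ab1 (−0.0131), H2-Eb1 (−0.0801), H2-DMa (−0.0433), H2-DMb1 (−0.0716) and Creb1 (−0.0431). The cause was not tested. Leaving out each library in turn gave −0.12 to 0.17 for H2-Aa, −0.12 to 0.21 for H2-Ab1, −0.16 to 0.15 for H2-Eb1, −0.0304 to 0.33 for H2-DMa, −0.12 to 0.24 for H2-DMb1, −0.36 to −0.04 for Cd74 and −0.19 to 0.12 for Ciita. The 12 genes named by smallest p in the related lists kept their sign there. Their estimates ran from −0.30 to −0.0024 for H2-DMb2, 0.0735 to 0.28 for Ifngr2 and −0.27 to −0.07 for Jak1. Ctss was not among these 12, and its estimates with a library left out were not examined. Log2 differences in counts per H2-Aa count were −0.00843 to 0.0526 for H2-Ab1, −0.0714 to 0.0291 for H2-Eb1 and −0.000204 to 0.13 for H2-DMb1.

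Correlations of Cd74 over 8 libraries, without ALDHdim 2 and ALDHbr 2, lost their call for H2-DMa (0.479), H2-DMb1 (0.567), macrophages and monocytes (0.755), alveolar type 2 cells (−0.68) and leukocytes (0.7098). Without ALDHbr 3 and ALDHbr 5 the alveolar macrophage list (−0.79) and the endothelial list (−0.79) passed. With group means removed the alveolar macrophage list passed (−0.73), and without its most abundant gene the dendritic cell list did (0.964). With 1 library left out r ran from 0.616 to 0.862 for H2-DMb1, −0.90 to −0.77 for alveolar type 2 cells, 0.755 to 0.869 for leukocytes and −0.79 to −0.47 for endothelium. With log10 total counts it ran from −0.04 to 0.790, passing without ALDHdim 2. With genes detected it ran from −0.205 to 0.372, and was −0.433 over the 8 libraries without ALDHdim 2 and ALDHbr 2.

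With the replicate number as a block 0 of the 7 genes and 0 genes in all passed, and the median of the 7 was 0.03. At an unadjusted p under 0.05 by edgeR's quasi-likelihood test there were 727 genes with the block and 402 without it. Same-numbered libraries correlated, as deviations from group means, by 0.0616, 0.366, 0.15, 0.259 and 0.281 for numbers 1 to 5, all above 0. ALDHdim 1 to 4 and ALDHbr 2, 3 and 5 each correlated best with their own number. ALDHbr 4 and ALDHdim 5 did so with each other (0.358), and ALDHbr 1 with ALDHdim 2 (0.322). The sources used here do not say whether same-numbered samples belong together. The numbers were not taken as pairs, and the permutations treated the libraries as independent of each other, which was not tested. Ciita is the gene most limited by depth, with 11 to 82 counts a library.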
